A study of Mus musculus with 8 samples.

Results

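Messenger RNAs of 10 genes that store, carry, take up or export iron, or break down heme, were followed through the cell types of the mouse lung after 10 months of cigarette smoke. The members were chosen by name, with earlier results of these data known. They are Fth1, Ftl1, Tfrc, Slc40a1, Slc11a1, Slc11a2, Hmox1, Blvrb, Trf and Cp, and make up 10 of the 33027 genes of the deposited single-cell matrix. All 8 mice were Sftpc-CreERT2-mTmG animals of the C57BL/6 background that had been given tamoxifen at 8 to 10 weeks of age, so that cells in which the Sftpc promoter had driven Cre (chiefly type II alveolar epithelial cells, AT2) carried a green reporter and other cells a red one. Of the littermates, 4 were exposed to smoke (CS) for 6 hours a day on 5 days a week, and 4 breathed room air (RA) only. Right lungs were taken 1 day after the last exposure, red cells were lysed, and immune (CD45+) and other cells were mixed again at 10% and 90%, so the number of macrophages does not show how many the lung held. The values below are transcripts per 10,000, scaled within each cell and then averaged in every mouse for every type, with n as the number of mice.

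The 40074 cells used, 20330 from CS and 19744 from RA mice, fell into 32 annotated types, among them 418 alveolar macrophages (178 CS and 240 RA, between 31 and 112 per mouse). Total unique molecular identifiers (UMIs) per mouse lay between 31094695 and 52753531. Of the 10 markers listed for alveolar macrophages, 9 were highest in that type, among them Chil3, at 136, and Marco, at 9.79, and the tenth, Car4, was highest in capillary A endothelium. The labels give 2 male and 2 female mice in each group, but the sex-linked transcripts Xist and Ddx3y went against the labelled sex in all 4 CS libraries and matched it in the 4 RA libraries. No comparison remains without those libraries, and sex by label or by transcripts was therefore entered as an alternative term. In 380 cells (0.948%) the barcode was also present in another library. Each of the 4 sequencing lanes held 1 CS and 1 RA mouse.

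Free iron is both needed by cells and harmful to them, because it feeds the formation of reactive oxygen. Cells take up transferrin-bound iron through the transferrin receptor, keep it inside ferritin, a shell built of heavy and light chains, and release it through ferroportin, while heme oxygenase frees iron from heme. Alveolar macrophages clear particles, dying cells and red cells from the airspace and are a main site of iron handling in the lung.

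Several of these messengers carry an iron-responsive element, a hairpin that iron regulatory proteins bind when iron is scarce. In the upstream untranslated region the bound hairpin blocks translation, whereas in the downstream region it protects the messenger from decay, so transcript levels reflect this control only in part. The GENCODE transcripts of GRCm38 were searched for this hairpin, as an unpaired C, a stem of 5 paired bases and a 6-base loop that read CAGTGN. A match was found in 294 of 21877 protein-coding genes (1.34%) and in 4 of the 10 members. The 30 bases around each member's match are given to show how alike the ferritin hairpins are and that Tfrc carries a row of them, with the loop in capitals.
Fth1, upstream region, chr19:9982732-9982761, plus strand: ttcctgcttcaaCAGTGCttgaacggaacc
Ftl1, upstream region, chr7:45459778-45459807, minus strand: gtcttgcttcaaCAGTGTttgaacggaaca
Slc40a1, upstream region, chr1:45925464-45925493, minus strand: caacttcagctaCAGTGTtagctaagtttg
Tfrc, downstream region, chr16:32631219-32631248, plus strand: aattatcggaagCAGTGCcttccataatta
Tfrc, downstream region, chr16:32631598-32631627, plus strand: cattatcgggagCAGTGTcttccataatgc
Tfrc, downstream region, chr16:32631663-32631692, plus strand: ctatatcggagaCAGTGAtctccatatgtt
Tfrc, downstream region, chr16:32631710-32631739, plus strand: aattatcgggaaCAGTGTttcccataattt
A match by these letters is a description and not a binding measurement, and the absence of one in the other 6 members says only that this pattern is not in their transcripts.

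The members were spread over the lung in distinct patterns, which are described without a test because the cell types had been named by clustering on expression. Levels are given for the 22 types with at least 20 cells in at least 2 mice of each group. Fth1, the ferritin heavy chain that oxidizes iron for storage, was highest in the cells labelled NG, at 232 ± 40.8 (SD, n = 8). These cells also held the highest sum of 5 neutrophil markers, 841 per 10,000. Alveolar macrophages came next, at 157 ± 32.5 (n = 8), above 20 of the other 21 types in every mouse. Adventitial fibroblasts followed at 86.0, and the lowest level, 6.37, was that of capillary B endothelium.

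Ftl1, the ferritin light chain that helps to form the iron core, did not separate the same types. Its level was 27.8 in mast cells, 26.2 in alveolar macrophages and 26.0 in NG cells, neighbours that lay within 1 SD of each other. Alveolar macrophages were above 16 of 21 types in every mouse. Both ferritin genes share sequence with copies, and reads from the shared stretches cannot be told apart. Of all 31-base words in its transcript, Ftl1-ps1 shared 83.3% with Ftl1, Gm15590 75.3% and Ftl1-ps2 48.9%, and Gm6977 shared 21.2% with Fth1. The copies were counted at low levels in alveolar macrophages, Ftl1-ps1 at 0.560, Gm15590 at 0.500, Ftl1-ps2 at 0.188 and Gm6977 at 1.27, so the ferritin levels carry some uncertainty.

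Hmox1, heme oxygenase 1, which opens the heme ring, was the only member that was highest in alveolar macrophages. Its level there, 6.40 ± 4.07 (SD, n = 8), was above that of the other 21 types in every mouse. Classical monocytes (1.71) and non-classical monocytes (1.66) came next and did not differ beyond their spread. Blvrb, biliverdin reductase B, was at 1.25 in adventitial fibroblasts and 1.19 in alveolar macrophages, again within 1 SD.

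The transport genes were low in alveolar macrophages. Tfrc, the transferrin receptor, was highest in AT2 cells, at 2.01 ± 0.235 (SD, n = 8), and stood at 0.271 in alveolar macrophages. Slc40a1, ferroportin, was highest in NG cells, at 1.06, then in capillary A endothelium, at 0.351, against 0.0715 in alveolar macrophages. Slc11a1, a metal transporter of phagocytic vesicles, was at 3.74 in NG cells, 3.45 in non-classical and 1.33 in classical monocytes, and at 0.050 in alveolar macrophages. Slc11a2, the divalent metal transporter of endosomes, was highest in ciliated cells, at 0.831, with 0.199 in alveolar macrophages.

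Cp encodes ceruloplasmin, a copper enzyme that oxidizes exported iron so that transferrin can bind it. It was highest in goblet cells, at 10.5 ± 2.68 (SD, n = 8), and lymphatic endothelium, at 8.18 ± 1.96, followed by club cells at 5.96 and alveolar fibroblasts at 5.63, and was 0.0674 in alveolar macrophages. Trf, which encodes transferrin, was close to absent from the table. Its highest level was 0.00107, in mesothelium, and it was counted in 0 of 418 alveolar macrophages. For counting error alone this allows up to 0.718% of cells with a counted Trf transcript, which sets no limit on the cells that express the gene. Trf overlaps the read-through gene Gm20425, itself at no more than 0.0279 in any of the 22 types, and reads that the 2 genes share cannot be told apart.

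**Figure D1:**
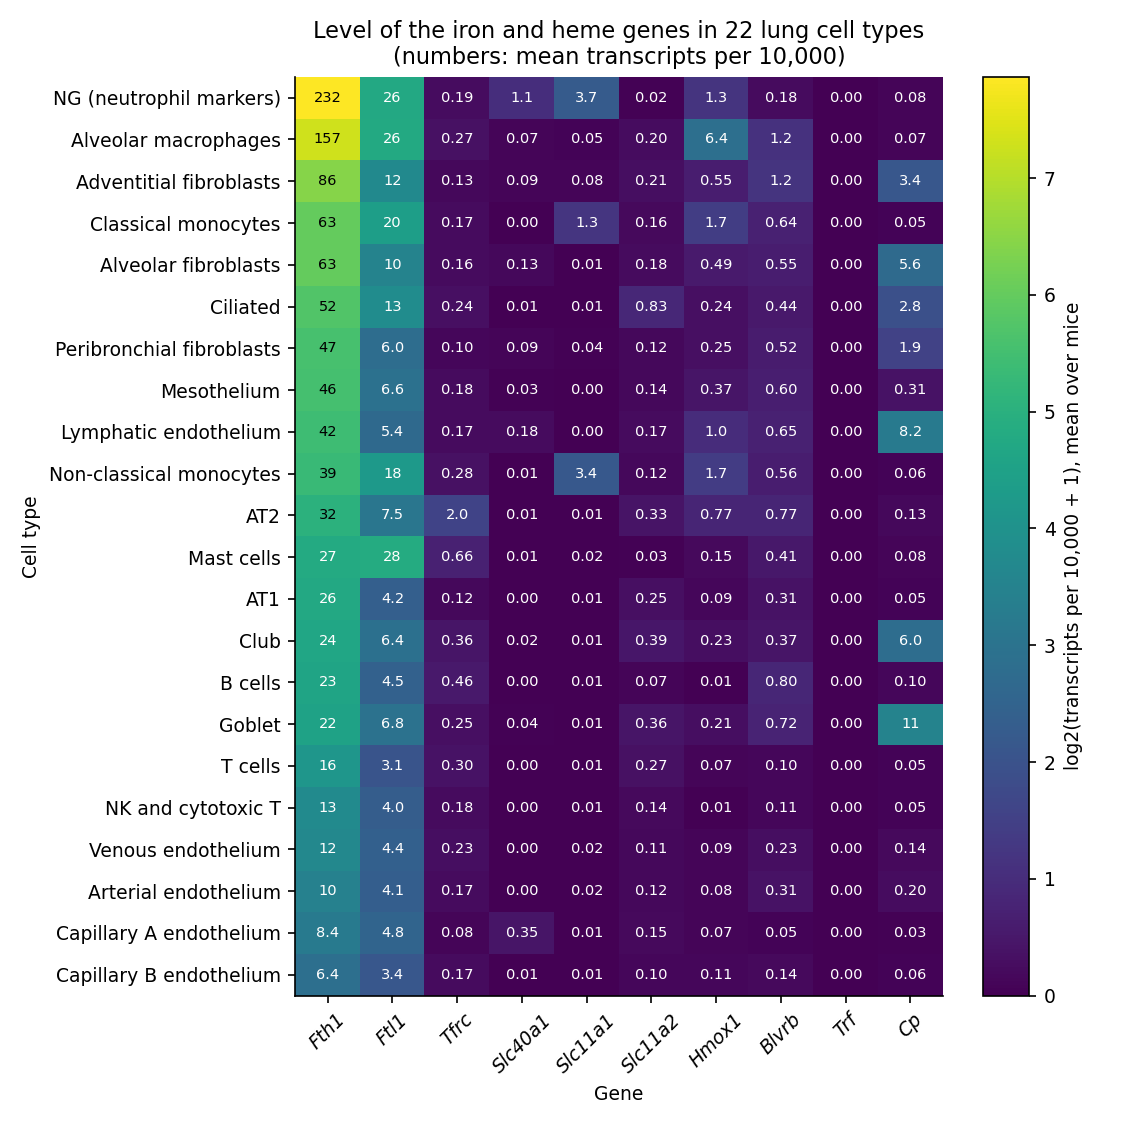
Mean level of the 10 members (columns) in 22 cell types (rows, ordered by Fth1), as the mean over mice of transcripts per 10,000. Colour gives log2 of the level plus 1 and the numbers give the level. Fth1 runs from 232 in NG cells to 6.37 in capillary B endothelium, Hmox1 peaks in alveolar macrophages at 6.40, Cp in goblet cells at 10.5, and Trf is near 0 throughout.

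Genes whose levels ran most like each member over the 22 types were taken from 6848 genes, as a description, since all points come from the same 8 mice. Fth1 was followed by its copy Gm6977 (Pearson r = 0.92), Gabarap (0.85) and Cstb (0.85), and Ftl1 by Pygl (0.90), Cebpb (0.88) and Alox5ap (0.85). Hmox1 ran with Plin2 (0.92), Hexa (0.91) and Rab32 (0.90). Tfrc ran with Sfta2 (0.94) and S100g (0.90). Slc11a1 ran with Pla2g7, Pilrb2 and Sirpb1b (all 0.98), Slc40a1 with Mirt2 (0.91), Camp (0.90) and Cstdc4 (0.89), and Slc11a2 with Appl2 (0.92), Bspry (0.92) and Ckmt1 (0.90). Cp (Fign, 0.81, Arhgap32, 0.79, and Chd9, 0.78) and Blvrb (Cd302, 0.71, Vav2, 0.70, and Scpep1, 0.70) had no partner as close. The values for Trf (Myl7, Lrrn4 and Chst4) rest on the types where it was above 0 and are not interpretable.

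The first comparison asked whether smoke changed the members in alveolar macrophages. Of the 10, 6 were found in at least 10% of these cells in either group and were tested with limma on log2 of the level plus 1. None passed a Benjamini-Hochberg adjusted p of 0.05, when 0.530% of the 7554 genes tested in this type did (40 genes). With limma, 1 of the 6 members, Ftl1, had an unadjusted p under 0.05, as did 757 of all genes tested. The other tool run, a Wilcoxon test over single cells, passed 3 of the 6 (Ftl1, Fth1 and Hmox1) and 1.83% of all genes, but it takes the cells of 1 mouse as independent and is therefore no test of exposure over mice.

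Ftl1 had the largest difference of the 6. In the CS mice C2, C5, D2 and D5 it stood at 18.6, 15.7, 9.76 and 30.2 per 10,000, and in the RA mice F1, F3, M1 and M3 at 26.6, 37.4, 35.8 and 35.7. The groups overlapped in 1 mouse each, D5 and F1, and the CS mouse was below the RA mouse of its lane in 4 of 4 lanes. Levels averaged 18.6 ± 8.56 in CS and 33.9 ± 4.90 in RA (SD, n = 4 each), a ratio of 0.548. The log2 difference was -0.93 (SE 0.234), with a limma adjusted p of 0.0874, and an exact two-sided permutation test over the mice gave p = 0.0571.

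That call depended on single libraries and on the lane. With lane as a block, the limma adjusted p for Ftl1 was 0.0440. It was 0.00403 without mouse D5, where the log2 difference was -1.18, and 0.239 without mouse D2, where it was -0.67. D2 held the shallowest macrophages, with a median of 3252 UMIs per cell against 4661 to 9917 in the other 7 mice, and the highest sums of 5 red-cell markers (21.4 against 0.169 to 0.777) and of 5 AT2 markers (23.3 against 0.463 to 5.58). The RA mouse F3 had the highest sum of monocyte markers (2.32 against 0.114 to 0.586). Its sum of interstitial macrophage markers was also the highest (1.80 against 0.304 to 0.755). The RA mouse F1 had the highest sum of alveolar macrophage markers (368 against 181 to 261). The part of depth and of these sums in the level of Ftl1 was not tested. Early response and heat shock genes, which rise when tissue is digested, summed to 24.0 to 32.8 in CS and 29.8 to 46.6 in RA macrophages. Their part was not tested. The sum of 4 endothelial markers was 2.84 to 4.25 in CS macrophages and 0.890 to 2.84 in RA macrophages, with all 4 markers detected, against 73.9 in capillary B endothelium, and its part was not tested either.

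Fth1, the partner chain, had a smaller difference. Its levels in CS macrophages were 119, 170, 110 and 161 for C2, C5, D2 and D5, and in RA macrophages 211, 179, 160 and 145 for F1, F3, M1 and M3. The ranges overlapped and the CS mouse was lower in 2 of 4 lanes. Fth1 differed by -0.32 on the log2 scale (SE 0.155, limma adjusted p = 0.503).

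Hmox1 was lower in 3 of the 4 CS mice than in any RA mouse, while the fourth lay within the RA range. It was at 2.83, 3.51, 3.17 and 10.3 in C2, C5, D2 and D5, and at 14.4, 5.82, 4.34 and 6.76 in F1, F3, M1 and M3. Hmox1 differed by -0.61 on the log2 scale (SE 0.307, limma adjusted p = 0.517, exact permutation p = 0.286), which became -0.97 without D5 (limma adjusted p = 0.0730) and -0.30 without F1 (0.836). Blvrb was at 1.19 ± 0.523 in CS and 1.18 ± 0.387 in RA (SD, n = 4 each), and its log2 difference of -0.00 (SE 0.169) leaves a wide margin in either direction.

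The uptake genes were near the detection limit in macrophages. Tfrc was at 0.490, 0.343, 0.323 and 0.231 in C2, C5, D2 and D5 and at 0.265, 0.0582, 0.121 and 0.333 in F1, F3, M1 and M3, which overlapped (log2 difference 0.18, SE 0.0960, limma adjusted p = 0.558). After each cell was thinned to 2000 UMIs, a Tfrc transcript was found in 12.3% ± 1.65 of CS and 5.19% ± 3.25 of RA macrophages (SD over 4 mice), ranges that did not overlap. The exact two-sided permutation p of 0.0286 is the smallest that 4 mice against 4 can give. Shares were compared for all 10 members in several cell types after a single random thinning. How many of all genes separate in this way was not computed. Without thinning the shares were 15.8% and 12.2%. These count any value above 0, whereas values were rounded to whole counts before thinning, so the measures are unlike. Thinning left out 22 CS and 6 RA cells, and B cells gave 8.88% and 4.999% and capillary B endothelium 2.56% and 3.52% after thinning. Slc11a2 was at 0.214 ± 0.121 in CS and 0.185 ± 0.0816 in RA macrophages (SD, n = 4), a log2 difference of 0.03 (SE 0.0863).

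**Figure D2:**
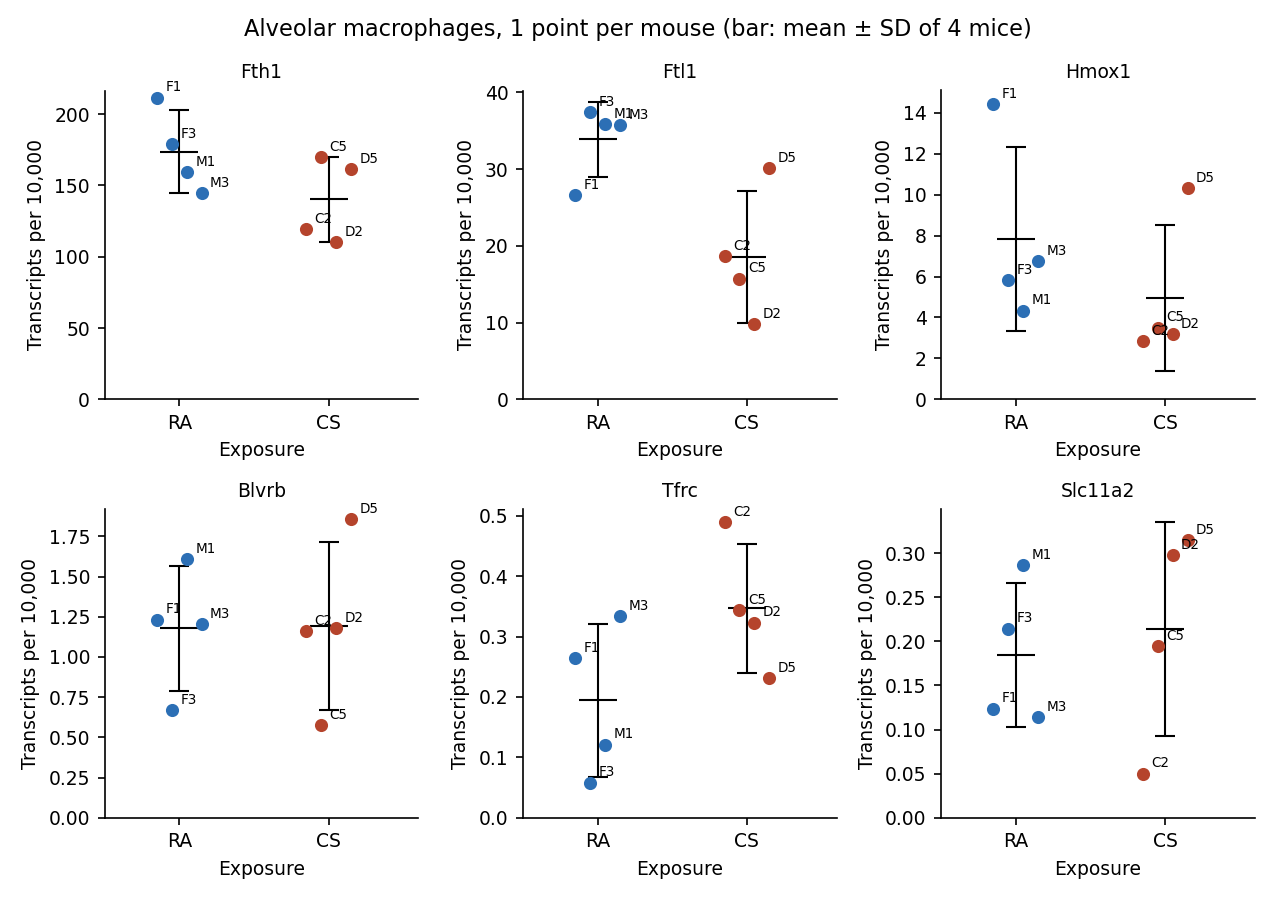
Level in alveolar macrophages of the 6 members tested there, in transcripts per 10,000, with 1 point per mouse named beside it and the bar as mean ± SD of 4 RA (blue) or 4 CS (red) mice. Ftl1 lies between 9.76 and 30.2 in CS and between 26.6 and 37.4 in RA mice, and the groups overlap in every panel.

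The other 4 members fell under the filter in macrophages. Slc40a1 was between 0.0209 and 0.367 in CS and between 0 and 0.0259 in RA macrophages, with the highest value in D5. Slc11a1 and Cp averaged 0.050 and 0.0674 over the 8 mice, and Trf was at 0. Such levels rest on few molecules and no fold is given.

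The second comparison asked whether macrophages differed from other types in their response. For each mouse the mean log2 level over 16 types with at least 20 cells in all 8 mice was subtracted from the level in macrophages. Of 9849 genes, 0.0203% passed (2 genes), and none of the 7 members tested was among them. Of these 7 members, limma gave an unadjusted p under 0.05 for none, against 10.5% of all genes. Ftl1 differed by -0.93 between CS and RA in macrophages and by -0.31 over the other types, a difference of -0.62 on the log2 scale (limma adjusted p = 0.511, exact permutation p = 0.143). For Hmox1 the values were -0.61 and -0.08, a difference of -0.53 (exact permutation p = 0.286). These values rested on single mice: without D5 they were -0.90 for Ftl1 and -0.88 for Hmox1 (limma adjusted p = 0.210 and 0.263), without D2 Ftl1 was at -0.35, and without F1 Hmox1 was at -0.28. For Fth1 the values were -0.32 and -0.28, a difference of -0.03 (exact permutation p = 0.943). The differences were 0.16 for Tfrc, -0.01 for Blvrb and 0.01 for Slc11a2. Cp entered through the other types alone, and no value is given for it because its level in macrophages rests on few molecules. A smoke response of these genes that sets macrophages apart was thus not detectable with 4 mice a group.

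The third comparison took the members through all 22 types. Over 115 pairs of member and type that could be tested, 4 passed the limma threshold within their type, 2 higher and 2 lower in CS, against 1.23% of all 172262 pairs of gene and type (2118 pairs). In 9 of the 115 pairs only 1 group reached the 10% filter, which can set the direction. Among the 106 pairs where both groups reached it, 27 had an unadjusted limma p under 0.05 (25.5%), against 14.6% of all such pairs of gene and type and 15.2% without that condition, and 18 of the 27 were the ferritin genes. The 4 pairs that passed were all among the 106 (3.77%, against 1.22% of all such pairs). The same 8 mice stand behind every type, so the pairs are not independent. The members were also chosen with earlier results of these data known, so a share above that of all genes is no test of the set.

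The estimated differences of the ferritin genes were below 0 in most types, but only 1 type for each gene passed the threshold. Ftl1 had a negative log2 difference in 21 of 22 types, ciliated cells (0.08) being the exception, with a median of -0.29. Of the 1704 genes tested in all 22 types, 4.05% were lower in at least 21 of them (69 genes). Fth1 was lower in 18 of 22, a count reached or passed by 17.1% of these genes, with a median of -0.24 and an extreme of -0.82 in lymphatic endothelium (SE 0.222, limma adjusted p = 0.250). An unadjusted limma p under 0.05 was reached in 11 types for Ftl1 and in 7 for Fth1, counts that 2.82% and 14.3% of the 1704 genes reached or passed, and 1 type each passed after adjustment. In mesothelium Ftl1 had a difference of -0.73 and missed the threshold (limma adjusted p = 0.0782).

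**Figure D3:**
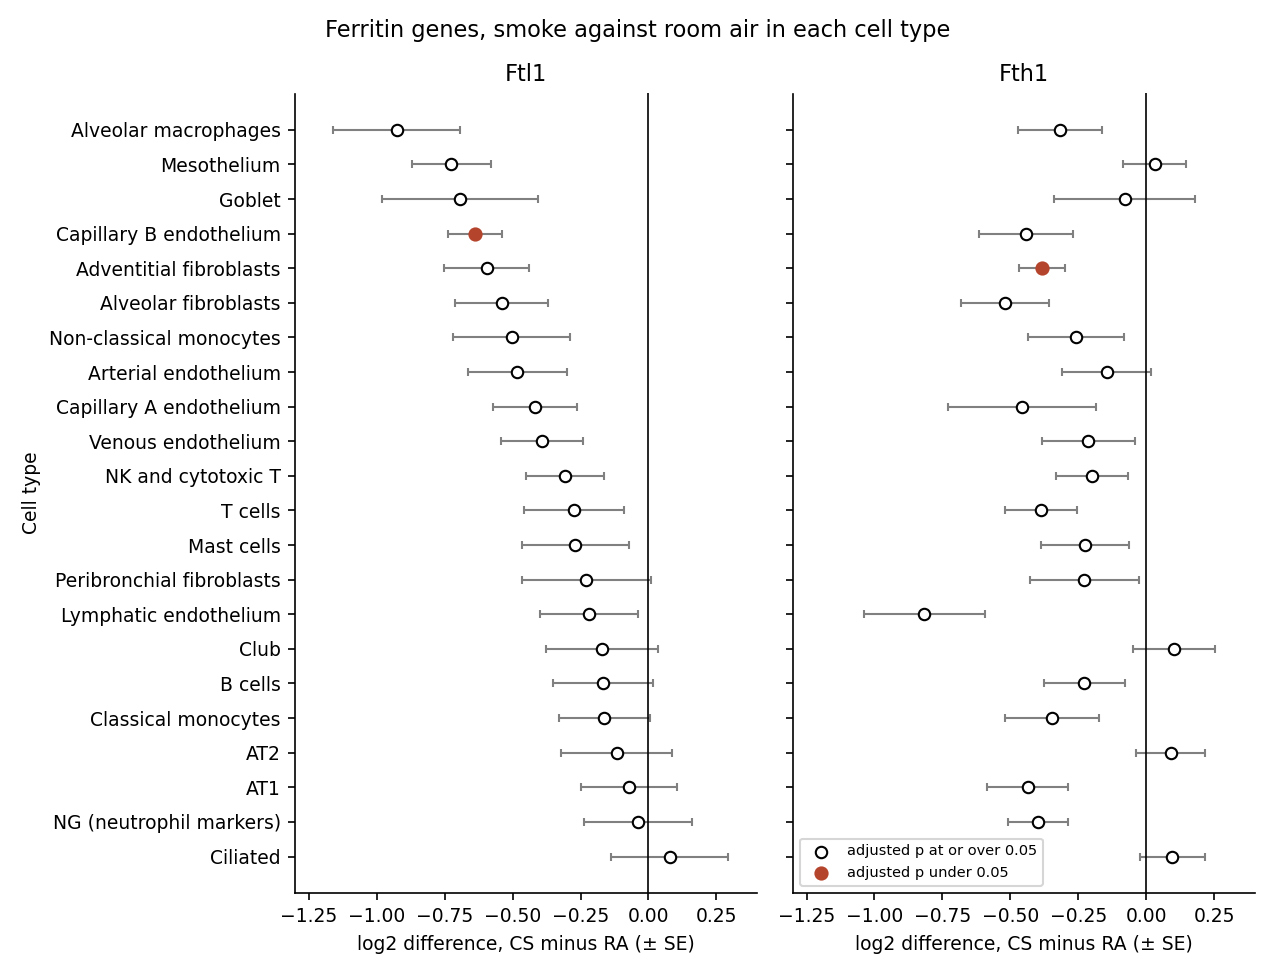
Log2 difference between CS and RA mice (x axis, with bars of 1 SE) of Ftl1 and Fth1 in 22 cell types (y axis, ordered by Ftl1). Filled red points passed an adjusted p of 0.05. Ftl1 lies below 0 in 21 types and Fth1 in 18, and the filled points are Ftl1 in capillary B endothelium (-0.64) and Fth1 in adventitial fibroblasts (-0.38).

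Ftl1 fell in capillary B endothelium, where 3.97% of 6556 genes fell. Those 260 genes became 0 with lane as a block or without D5, 15 without C2, 20 without D2 and 24 without F3, and the 412 higher and 260 lower genes became 325 and 439 with a common median. Its levels were 3.07, 2.28, 2.50 and 1.98 in the CS mice C2, C5, D2 and D5 and 4.04, 4.53, 4.31 and 4.51 in the RA mice F1, F3, M1 and M3, without overlap. The log2 difference was -0.64 (SE 0.0989, limma adjusted p = 0.0155), and the CS mouse was lower in 4 of 4 lanes. With lane as a block the adjusted p was 0.0646, and without D2, D5 or F3 it was 0.0512, 0.0568 and 0.0510. Without a filter on genes it was 0.0904. The summed level of 7 early response and heat shock genes, which rise when tissue is digested, was 31.9 to 57.5 in CS and 63.4 to 87.2 in RA cells, also without overlap, and its part was not tested. The sum of the alveolar macrophage markers was 1.18 to 1.88 in CS and 1.63 to 1.89 in RA cells. The sum of 6 interstitial macrophage markers did not overlap, at 0.455 to 0.690 in CS and 0.713 to 1.06 in RA cells, and its part was not tested. Of these markers C1qa, C1qb, C1qc and Ms4a7 were each at or near 0.

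Fth1 fell in adventitial fibroblasts, where 1.19% of 9406 genes fell. Those 112 genes became 12 with lane as a block and 17 to 50 without any mouse but M1, and the 180 higher and 112 lower genes became 120 and 153 with a common median. The CS mice C2, C5, D2 and D5 held 68.5, 80.4, 76.9 and 72.4 per 10,000, all below the RA mice F1, F3, M1 and M3 at 97.5, 91.6, 100.4 and 100.01. On the log2 scale the difference was -0.38 (SE 0.0846, limma adjusted p = 0.0392). This call was lost in 15 of 21 alternatives, among them lane as a block (0.119), any one mouse left out (0.0555 to 0.0983), adjustment over all types together (0.0769), summed counts (0.0713) and quantile normalization, where the difference was -0.04. The summed red-cell markers were 0.271 to 0.771 in CS and 0.427 to 24.4 in RA fibroblasts, and their part was not tested. The sum of the interstitial macrophage markers was 16.7 to 28.6 in CS and 28.9 to 36.3 in RA fibroblasts, without overlap, and its part was not tested either. It was mostly Apoe, whose highest level over the types was in these fibroblasts, at a mean of 28.7, while C1qa, C1qb, C1qc and Ms4a7 averaged 0.0303, 0.0214, 0.0103 and 0.00103. Ftl1 in these cells had a log2 difference of -0.60 and did not pass (limma adjusted p = 0.0574).

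In NG cells, where Fth1 is most abundant, it was at 195, 202, 192 and 209 in C2, C5, D2 and D5 and at 295, 267, 277 and 221 in F1, F3, M1 and M3. The groups did not overlap, but the share of all genes that separate in this way was not computed. The log2 difference of -0.40 (SE 0.111) did not pass over all genes of that type (limma adjusted p = 0.208). The red-cell markers summed to 1.99 to 35.6 in CS and 0.247 to 1.91 in RA NG cells, also without overlap, and the alveolar macrophage markers to 0.517 to 1.15 and 1.10 to 90.1, and their part was not tested. Ftl1 in NG cells was 25.8 ± 6.99 in CS and 26.3 ± 5.56 in RA (SD, n = 4 each).

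Cp rose in ciliated cells, where 2.72% of 11077 genes rose. Those 301 genes became 92 with lane as a block, 60 to 156 without C2, D2, D5, F3 or M3, and the 301 higher and 212 lower genes became 193 and 307 with a common median. Its levels were 3.81, 2.98, 4.76 and 4.75 in C2, C5, D2 and D5 and 1.62, 1.38, 1.64 and 1.48 in F1, F3, M1 and M3. The lowest CS mouse lay well above the highest RA mouse, the CS mean was 2.66 times the RA mean, and CS was higher in 4 of 4 lanes. The log2 difference was 0.99 (SE 0.109, limma adjusted p = 0.00282). It kept an adjusted p under 0.05 in all 21 alternatives that were run, which ranged from 0.000470 to 0.0273, including lane as a block and each mouse left out. A list of 6 secretory airway genes, chosen after the values of Cp were seen because goblet and club cells hold more Cp, summed to 42.7 to 74.2 in CS and 31.4 to 60.1 in RA ciliated cells, against a median of 4168 in CS and 4220 in RA club cells. Its part in the result was not tested.

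Cp was tested in 9 types, of which 1, AT2, passed the filter through CS cells alone, and its log2 differences ran from -0.40 to 0.99. Among the other types with the highest levels, the difference was 0.53 in goblet cells (SE 0.240, limma adjusted p = 0.369), -0.21 in club cells (SE 0.133, adjusted p = 0.604) -0.40 in lymphatic endothelium (SE 0.170, adjusted p = 0.481), 0.13 in alveolar and 0.25 in adventitial fibroblasts (adjusted p = 0.635 and 0.341). In goblet cells the CS mice C2, C5, D2 and D5 were at 13.9, 13.9, 11.9 and 10.6 and the RA mice at 7.09, 10.4, 9.13 and 7.15 in the order F1, F3, M1 and M3. These did not overlap, but the share of all genes that separate so in goblet cells was not computed. The interstitial macrophage markers in goblet cells summed to 0.476 to 0.990 in CS and 0.120 to 0.415 in RA mice, and their part was not tested.

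Blvrb also rose in ciliated cells. It was at 0.534, 0.475, 0.715 and 0.654 in C2, C5, D2 and D5 and at 0.195, 0.211, 0.453 and 0.258 in F1, F3, M1 and M3, with M1 just under the lowest CS mouse. The log2 difference was 0.32 (SE 0.0650, limma adjusted p = 0.0248) and CS was higher in 4 of 4 lanes. The call was lost with lane as a block (0.0653), with adjustment over all types together (0.0706) and without a filter on genes (0.114). It was also lost with any mouse but C5 or M1 left out (0.0526 to 0.0755). The summed early response genes in ciliated cells were 37.9 to 101 in CS and 64.2 to 99.6 in RA mice. The summed red-cell markers were 0.903 to 11.2 in CS and 0.0118 to 7.96 in RA ciliated cells, with the highest RA value in M1. The part of either sum was not tested.

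**Figure D4:**
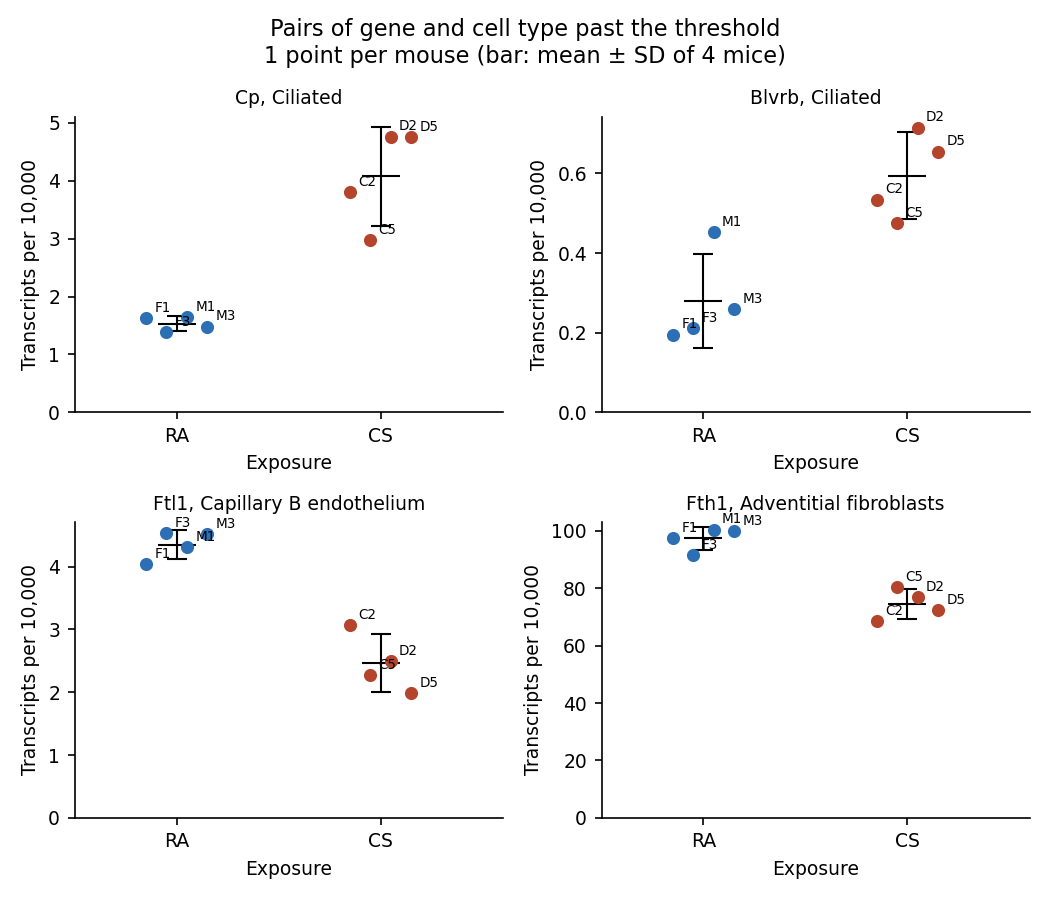
Levels, in transcripts per 10,000, of the 4 pairs of member and cell type that passed the threshold, with 1 point per mouse and the bar as mean ± SD of 4 RA (blue) or 4 CS (red) mice. The groups do not overlap in any of the panels, and for Cp in ciliated cells the CS mice lie between 2.98 and 4.76 and the RA mice between 1.38 and 1.64.

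The transporters and the receptor had no type past the threshold. Slc40a1 was tested in 4 types, but in 3 of them, capillary A endothelium, lymphatic endothelium and goblet cells, only the CS cells reached the 10% filter, which can set the direction, and no count of directions is given. In NG cells, where both groups reached it, the difference was 0.31 (SE 0.125, limma adjusted p = 0.316). For the others the share of all genes with like counts of directions was not computed, so ranges are given. Slc11a2 differed by -0.06 to 0.14 over 11 types, 1 of which passed the filter through RA cells alone. Tfrc differed by -0.17 to 0.18 over 15 types, of which 3 passed the filter through CS cells alone and 1 through RA cells alone. Slc11a1 differed by -0.18 to 0.04 over 3 types. Hmox1 differed by -0.61 to 0.09 over 12 types. Next to macrophages its largest difference was -0.40 in adventitial fibroblasts (SE 0.129, limma adjusted p = 0.104).

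Wider lists of iron and heme genes gave few further changes. In alveolar macrophages 0 of 46 tested genes of the 5 lists passed with limma, against 0.530% of all genes, and 1, Slc7a11, had an unadjusted p under 0.05, against 757 of all 7554, so the share in the lists was below the background. Of 4 tested genes of iron sensing 1 was higher and 3 lower, with Aco1 at -0.07, Ireb2 at -0.04 and Ncoa4 at -0.05. Of 6 genes of iron transport and binding 4 were higher and 2 lower, with Slc25a37 at -0.11, Mcoln1 at 0.09 and Pcbp1 at 0.08. Of 16 heme genes 11 were higher and 5 lower, with Cpox at 0.17, Flvcr1 at 0.15 and Hmox2 at -0.19. Of 11 genes that assemble iron-sulfur clusters 4 were higher and 7 lower, with Bola3 at -0.10, Iscu at -0.10 and Ciao1 at 0.06. Of 9 genes linked to NRF2 or to ferroptosis defence 2 were higher and 7 lower. Slc7a11, the cystine transporter, had the lowest p of any list gene at -0.62 (SE 0.174, limma adjusted p = 0.132). It was followed by Gclm at 0.25 and Keap1, a repressor of NRF2 and not a target, at -0.14.

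Over all 22 types, 5 tests of list genes passed upwards and 1 downwards, which is 0.641% of 936 tests and below the 1.23% of all pairs of gene and type. In ciliated cells Steap2, a metalloreductase, rose by 0.20, Me1, a source of NADPH, by 0.27, and Slc7a11 by 0.11 on the log2 scale (limma adjusted p = 0.0194, 0.0121 and 0.00774). Slc7a11 rose by 0.43 in adventitial fibroblasts (adjusted p = 0.0376) and Bach1, a heme-sensing repressor of Hmox1, by 0.24 in alveolar fibroblasts (adjusted p = 0.0451). Ciao2b, which helps to place iron-sulfur clusters, fell by 0.17 in capillary B endothelium (adjusted p = 0.0312). With lane as a block the adjusted p was 0.0580 for Steap2, 0.0728 for Ciao2b, 0.104 for Slc7a11 in adventitial fibroblasts and 0.120 for Bach1, so these 4 calls were lost, while Me1 (0.0286) and Slc7a11 in ciliated cells (0.0418) kept theirs. Those 4 calls were also lost with 1 mouse left out, Steap2 without C2 or D5, Ciao2b without C2, D2, D5 or F3, Slc7a11 in adventitial fibroblasts without any mouse but C2, and Bach1 without any of the 8. Slc7a11 in ciliated cells passed the filter through CS cells alone (15.8% against 4.89% of RA cells), which can set the direction, so its call is no support for a rise. Without a filter on genes none of these calls stood. The limma adjusted p was then 0.0582 for Slc7a11 and 0.0605 for Me1 in ciliated cells, and up to 0.164 for the others. The lists held 98, 149, 284, 224 and 181 tests in the order above.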

How the data were processed

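Single-cell suspensions were sequenced with a droplet 3′ kit that counts molecules, so levels are not scaled by gene length. Per the submitters' processing notes, reads were aligned with STAR (2.7.3a) and STARsolo to GRCm38.p6. The deposited matrix holds estimated counts, UMIs from which the authors had removed free RNA. Only 1.28% of values are whole (within 1e-06) and they are not scaled. The authors' annotation (a deposited text column of the cell table) gave the cell types, and 1025 multiplets and 7 cell cycle cells were left out. No other doublet caller was run.

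Because values are not whole counts, no count model was used. Each cell was scaled to 10000, averaged per type and mouse (at least 20 cells), and log2(mean + 1) was tested with limma 3.58.1 (R 4.3.3, trended variance) for genes present in 10% or more of either group's cells. Adjustment followed Benjamini and Hochberg within each type, at 0.05. Fold changes on this scale understate those of low genes. Single values were compared by exact permutation (smallest p 0.0286). The fit was tested on simulated data. Members, lists and tests were chosen with earlier results of these data known. All members were named in every comparison; from the lists, the genes that passed and the 3 with the lowest p in macrophages; and, for each member, the 3 genes with the highest r, of which 1 is not reported here. The labels tie 1 CS and 1 RA mouse to each lane, yet their deviations did not move together in macrophages (r between -0.03 and 0.09 for 4 lanes). Over the types compared, r ran from -0.27 to 0.37 within lanes and from -0.44 to 0.38 between lanes. D5 and M3, which shared a lane, had r of 0.30 in ciliated cells and 0.37 in capillary B endothelium. Lane as a block is given where it changes a call. The labels do not say that mice were caged or digested apart, so p-values measure the spread between these 8 mice. Intervals and floors cover counting error only. Gene models and transcripts were GENCODE M21. Copies were genes of the file with at least 20% of the 31-base words of a transcript in a member, a limit set after the data were seen.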

Additional observations from a re-analysis of the deposited data

Results flagged for a closer look

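In alveolar macrophages 3 values lay far from the other 3 mice of their group by Dixon's test, among 26 groups of 4 tested, of which chance flags about 1 in 20. Ftl1 was 26.6 in the RA mouse F1, against 35.7 to 37.4 in the other RA mice. Slc40a1 was 0.367 in the CS mouse D5, against 0.0209 to 0.0763 in the other CS mice. Hmox1 was 10.3 in the same mouse D5, against 2.83 to 3.51. D5 thus stood apart from the other CS mice in Hmox1 and Slc40a1 and had the highest Ftl1 and Blvrb of them, and its macrophages were the deepest of the CS group, with a median of 9325 UMIs per cell. The part of depth was not tested.

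The smoke difference in ciliated cells was set against that in other types for the 2 members that rose there, a contrast chosen after their values were seen. For Cp, ciliated minus club cells differed by 1.198 on the log2 scale between CS and RA mice, and ciliated minus the mean of the other 15 types by 0.97. For Blvrb the values were 0.24 and 0.34. In all 4 contrasts every CS mouse lay above every RA mouse. These pairs had been chosen out of 115 for their difference, so this separation was close to fixed beforehand and is no test.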

How the results depend on the processing

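Of 377 values recomputed for 20 differences and counts, 293 were kept. For a difference this means the same direction and side of the threshold, and for a count a value close to the main one. A difference that missed the threshold both times also counts as kept. Summing the ferritin genes with their copies was added after the data were seen and moved no call of Ftl1 or Fth1. In macrophages the copies were low beside the ferritin genes, so the sum could change little there. In alveolar macrophages the 40 genes that passed became 2 without a filter on genes, 73 with labelled sex as a term, 72 with lane as a block, 138 with a Wilcoxon test over single cells, which treats the cells of 1 mouse as independent, and 8 to 82 with 1 mouse left out. The 4 pairs of member and type became 1 without a filter, 2 with lane as a block, 2 with adjustment over all types together and 1 to 3 with 1 mouse left out. With the block, 1 of the 2 was among the 4 (Cp in ciliated cells) and the other was Ftl1 in macrophages, and without mouse D5 or F3, 1 of 2 was outside the 4. The 4 became 6 for genes found in at least 25% of cells (adding Ftl1 in mesothelium and in adventitial fibroblasts) and 5 with sex read from transcripts (adding Ftl1 in mesothelium). Summed counts also gave 4, of which 3 were among the original 4 and 1 was Fth1 in capillary B endothelium. The 2 genes that separated macrophages from other types became 1 with sex read from transcripts, 4 with lane as a block, 1 with summed counts, 6 in cells of at least 2000 UMIs and 1 to 8 with 1 mouse left out. The block changed no call of a member other than those given with the results. The cause of these moves was not tested. Without a filter, 20359 genes were tested in macrophages.

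Values near 0 changed sign. The difference of the smoke differences turned to 0.0194 for Fth1, -0.0127 for Slc11a2 and 0.0622 for Blvrb with summed counts, and to -0.0217 for Slc11a2 in cells of at least 2000 UMIs. With 1 mouse left out it ran from -0.132 to 0.126 for Fth1, from -0.0234 to 0.0823 for Slc11a2 and from -0.150 to 0.136 for Blvrb. In macrophages Blvrb turned to 0.0756 with summed counts, 0.00256 with a common median and 0.0312 over single cells. With 1 mouse left out it ran from -0.140 to 0.145, and Slc11a2 from -0.00772 to 0.1001. With 31 to 112 macrophages per mouse, the levels of Tfrc, Slc11a2 and Slc40a1 rest on few molecules.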

Other observations

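A small group labelled M held between 3 and 29 cells per mouse, and only the RA mouse F1 had at least 20, so it entered no comparison at that minimum. With a minimum of 10 cells per mouse, 2 CS and 3 RA mice were compared, and limma gave no member an adjusted p under 0.05 (lowest 0.739, for Slc11a2) or an unadjusted p under 0.05, against 0.0356% and 6.39% of 8424 genes. In that mouse it held Fth1 at 141 and Ftl1 at 27.0 per 10,000, with Hmox1 at 4.35, against 211, 26.6 and 14.4 in the alveolar macrophages of the same mouse. Slc11a1 was at 2.74, Slc11a2 at 2.20 and Blvrb at 2.84 in these cells, while Slc40a1 was at 0.0215 and Cp at 0.568.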
